A study of Drosophila melanogaster with 2 samples.

Results

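The distal intergenic peaks of Asciz are the reproducible peaks whose summits lay outside every annotated gene and more than 2000 bp from the transcription start site (TSS) of any gene. They numbered 451 of the 5085 reproducible peaks, or 8.87% (95% Wilson interval 8.12 to 9.68%, counting error only). The rule reads the summit only, and 441 of the members had no base of the peak in a gene. Of the 1578 peaks with intergenic summits, the other 1127 lay within 2000 bp of a TSS and were not members. The peaks came from chromatin immunoprecipitation and sequencing (ChIP-seq) with an anti-GFP antibody. The material was whole embryos of both sexes, pooled, aged 0 to 24 h. Their transgenic line stably expressed Asciz (CG14962) with a GFP fused to its C terminus. All embryos form 1 group, profiled in 2 libraries labelled biological replicate 1 and biological replicate 3 (technical replicate 1 of each), from chromatin sonicated to 200 to 800 bp. No embryos without the tagged protein and no second condition were analysed, so the comparisons are between places in the genome and between the libraries. Binding in a small share of the cells of an embryo and weaker binding in many cells cannot be told apart in such material.

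Asciz is a zinc finger transcription factor, known in flies for switching on ctp, the gene of the dynein light chain LC8. LC8 protein in turn binds Asciz and lowers its activity. Distal intergenic sequence is a place where enhancers and insulators are found, mostly around genes with complex expression in the embryo, and peaks there can be described apart from those at promoters.

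The sequences at some of the highest distal intergenic peaks show what kind of DNA lay under their summits. Each line gives a summit with 50 bases on either side, from the RefSeq release 6 assembly (dm6), plus strand, with the longest unbroken run of A and T in capitals. The first 7 are among the highest members, in falling order of pooled signal. They lie at chr2L:2202342-2202442 beside CG31668, chr3R:5113233-5113333 beside CG43131, chr2L:1643407-1643507 beside lncRNA:CR45695 and chr4:497847-497947 beside zfh2. The others lie at chr3R:14053543-14053643 beside foxo, chr3L:10752713-10752813 beside CG43245 and chr3L:4475081-4475181 beside CG11349. The last 3 are extremes of base composition: the summits of lowest A+T at chr3L:815591-815691 beside lncRNA:CR44537 and chr3L:21479824-21479924 beside croc, and a summit of the highest A+T at chr3L:6885743-6885843 beside lncRNA:CR45416.
CG31668: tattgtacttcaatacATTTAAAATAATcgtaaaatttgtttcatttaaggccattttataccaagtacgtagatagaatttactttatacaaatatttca
CG43131: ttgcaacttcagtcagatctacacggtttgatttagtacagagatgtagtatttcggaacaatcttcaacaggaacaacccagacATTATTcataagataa
CR45695: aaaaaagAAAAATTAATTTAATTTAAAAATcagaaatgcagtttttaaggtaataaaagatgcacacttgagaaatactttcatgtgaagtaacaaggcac
zfh2: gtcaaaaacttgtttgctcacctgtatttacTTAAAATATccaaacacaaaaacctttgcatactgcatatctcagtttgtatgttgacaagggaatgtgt
foxo: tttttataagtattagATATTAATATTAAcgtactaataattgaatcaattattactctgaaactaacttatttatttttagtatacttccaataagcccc
CG43245: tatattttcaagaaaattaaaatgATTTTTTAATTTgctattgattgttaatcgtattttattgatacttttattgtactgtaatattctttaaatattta
CG11349: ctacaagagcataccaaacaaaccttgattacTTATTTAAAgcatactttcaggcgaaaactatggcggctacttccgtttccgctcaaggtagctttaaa
CR44537: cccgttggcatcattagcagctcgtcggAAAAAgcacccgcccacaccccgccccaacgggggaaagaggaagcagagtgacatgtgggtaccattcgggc
croc: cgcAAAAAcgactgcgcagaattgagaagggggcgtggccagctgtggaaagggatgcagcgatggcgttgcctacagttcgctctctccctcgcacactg
CR45416: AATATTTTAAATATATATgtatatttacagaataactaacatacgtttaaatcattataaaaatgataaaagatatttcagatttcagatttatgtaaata

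The high members shown were A+T-rich at the summit, but not all of them. The sequence at CG31668 held 78.2% A+T and a longest A/T run of 12 bp, and that at CG43245 held 85.2% with a run of 12 bp. The longest run of the set, 23 bp, stood beside lncRNA:CR45695. The sequences at CG11349 and CG43131 held 60.4% and 64.4% A+T, with runs of 9 and 6 bp. At the low extreme, the summits beside lncRNA:CR44537 and croc held 38.6% and 40.6%. The peak beside CR45416, at 85.2%, had a pooled signal of 146.7, while the equally A+T-rich peak at CG43245 had 718.2. Equal base composition thus occurred at a high and at a low peak.

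The signal of a peak was set by the authors' peak caller and describes ranks within a list. Distal intergenic peaks were somewhat lower than the rest. Their median pooled signal was 189.3 (quartiles 151.9 and 261.8, range 126.7 to 1617), against 193.9 for peaks within genes and over 2000 bp from a TSS, 219.1 for promoter peaks (within 500 bp of a TSS) and 207.1 for all other peaks together. Relative signal is the strongest overlapping region in a library divided by that library's median over all reproducible peaks. The members' median relative signal was 0.920 in replicate 1 and 0.923 in replicate 3, which averages to 0.921 ± 0.00214 (SD, n = 2). It was 0.937 and 0.932 for the peaks within genes (0.934 ± 0.00379), and 1.09 and 1.10 for promoter peaks (1.09 ± 0.0128). Both libraries thus put the members below promoter peaks, and below the peaks within genes by a smaller amount. Scaling each library to its own median removes any overall difference between the libraries, so these SDs are no measure of error. In each library's own highest regions, the members' median signal was 0.885 (replicate 1) and 0.929 (replicate 3) of that of all other peaks. No test was made, since an exact paired permutation over 2 libraries cannot give a two-sided p below 0.5.

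The members thinned out toward the top of the list. Among the 500 highest peaks there were 27 members (5.40%), among the next 500 there were 31 (6.20%), and in the ranks from 4501 to 5000 there were 59 (11.8%). Only 5 members stood among the 100 highest peaks, and 73 in the highest 25% of the list. The most frequent peak width, 424 bp, was found for 80.9% of members and for 73.8% of all other peaks. Over 4 equal groups of members by signal, that share was 35.4% in the highest group, and 89.4, 100 and 99.1% in the groups below it.

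The highest distal intergenic peak on 2L lay between COX7AL2, which encodes a subunit 7A-like protein of cytochrome c oxidase, and CG31668 (2L:2202222-2202581, pooled signal 1553). Its relative signal was 6.66 in replicate 1 and 7.58 in replicate 3. A second member of the same gap, at 2L:2201096-2201427, had a pooled signal of 673.2, with 2.76 and 3.43 in replicates 1 and 3. Both peaks were therefore high in both libraries, and they were 1168 bp apart. The member beside zfh2, a zinc finger homeodomain gene of the nervous system, lay on chromosome 4 (4:497735-498034, signal 912.1) and stood at 4.36 in replicate 1 and 4.2 in replicate 3. Beside foxo, which encodes the forkhead factor of the insulin pathway, the member at 3R:14053440-14053745 (754.2) stood at 3.06 and 3.89. The member beside CG43131 (3R:5113124-5113438, 1023) stood at 4.21 and 5.17, and the member beside CG11349 (3L:4474995-4475274, 715.7) at 3.38 and 3.31. The peak beside CG11349 overlaps the end of that gene, and its summit lies in the gap.

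On arm 2R, the member nearest to CG13323, in the gap next to the Polycomb group gene Su(z)2, had the highest signal of all members (2R:13035162-13035506, signal 1617). Its relative signal was 7.47 in replicate 1 and 7.64 in replicate 3. On the other side of the Su(z)2 and Psc pair, which encodes related parts of Polycomb repressive complex 1, the gap between CG13321 and Psc held 2 members with signals of 909.0 and 851.8. They stood at 4.06 and 4.33, and at 4.59 and 3.54, in replicates 1 and 3. The member beside CycB, the gene of cyclin B, had a signal of 1111 and stood at 5.15 and 5.17. The member nearest to lncRNA:CR44761 (signal 1003) stood at 3.36 and 5.68 and was the least alike between the libraries of the 15 highest members. Over those 15, relative signal ranged from 2.76 to 7.47 in replicate 1 and from 3.02 to 7.64 in replicate 3. All 15 were among the 30 highest members in each library.

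**Figure D1:**
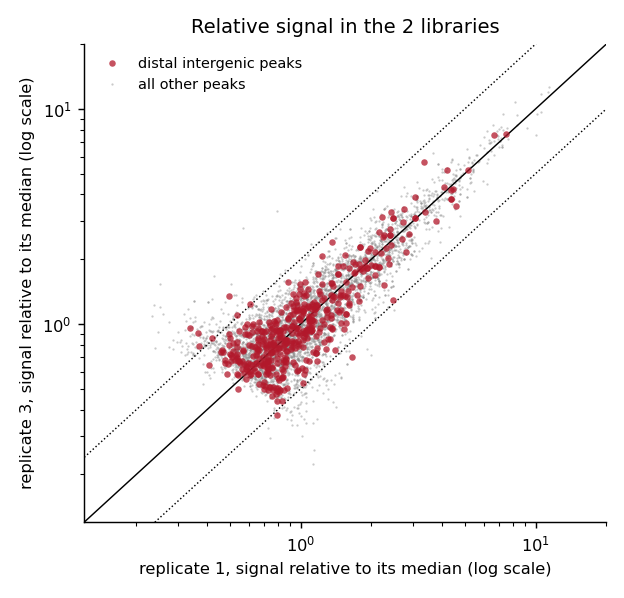
Relative signal of reproducible peaks in replicate 1 (x axis) and replicate 3 (y axis), both on log scales and in units of that library's median. Peaks without a region in both libraries, or with values beyond the axes, are not drawn. Red points are distal intergenic peaks and grey points are the other peaks drawn. The solid line marks equal values and the dotted lines mark a log2 difference of 1. Most red points lie between the dotted lines, and 9 of 449 lie outside.

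The reproducible peaks had been kept for agreement between these 2 libraries, so close values were in part set in advance. The libraries gave close values for most members. The plot of relative signal in both libraries shows them along the diagonal up to the highest values. Of the 451 members, 449 had a region in both libraries, and at 9 of these (2.0%) the log2 difference between libraries exceeded 1. Over all reproducible peaks with both regions the share was 4.32%, and over promoter peaks 6.51%. The median absolute log2 difference was 0.24 for members and 0.28 for all other peaks. Read as percentile ranks over all peaks of each library, more members moved: 71 of 449 (15.8%) differed by more than 25 points, against 18.4% of all reproducible peaks. Of the 9 members with a log2 difference over 1, replicate 3 was higher at 7 and replicate 1 at 2. Over all reproducible peaks, replicate 3 was higher at 136 of 212 such peaks and replicate 1 at 76. The summit in a library lay a median of 13 bp from the pooled summit in replicate 1 and 14 bp in replicate 3. Pairs of nearby peaks can fall in the same library region, and this was so for 32 members in each library, which then share a value.

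The largest differences toward replicate 3 were mostly at low peaks. The member beside lncRNA:CR43846 (3R:22861909-22862332, signal 161.3) stood at 0.337 in replicate 1 and 0.958 in replicate 3, a log2 difference of 1.51. At lncRNA:CR44366 the values were 0.496 and 1.35 (log2 difference 1.45). The member beside hry, the pair-rule gene hairy (3L:8683762-8684185, 133.3), stood at 0.365 and 0.906 (log2 1.31). At CG15468 the log2 difference was 1.09, and beside Dr, a homeobox gene of muscle and nerve cord, it was 1.04. In the other direction, the member beside CG33798 stood at 1.65 in replicate 1 and 0.699 in replicate 3 (log2 difference -1.24), and the one beside Tollo, a Toll-family receptor gene, at 0.789 and 0.376 (-1.07). The next members in that direction did not pass 1, at Osi6 (-0.95), CG43245 (-0.93) and bun (-0.92). Members beside Rh5, a rhodopsin gene (2L:12010484-12010907, 139.0), and Rilpl (X:1398615-1399038, 136.7) had no region in replicate 1, and no member lacked one in replicate 3.

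A stricter view asked whether a member lay among the 5085 highest regions of both libraries. This held for 342 of the 451 members (75.8%), against 75.4% of all reproducible peaks, so the members' share was at the background. In replicate 1 alone it held for 392 members and in replicate 3 for 389. By signal, it held for all 113 members of the highest of 4 equal groups, for 110 of the second, for 95 of the third and for 24 of the 112 in the lowest (21.4%). Most members of the lowest group were thus outside the highest regions of at least 1 library. By chromosome arm, the share was lowest on X (56.5%) and 2R (66.2%) and highest on 2L (85.2%) among the arms with more than 4 members. The members' median pooled signal on these arms was 163.7, 185.6 and 198.9, and its part in the shares was not tested. The same share over all peaks was not computed by arm.

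Position was described per Mb of sequence that meets the rule. The rule left 28.87 Mb, or 21.6% of the 133.6 Mb of the 6 chromosomes, and the members made 15.6 per Mb of it. When the rule was applied to the 5085 highest regions of each library, replicate 1 gave 486 (16.8 per Mb) and replicate 3 gave 431 (14.9 per Mb). Peaks within genes over 2000 bp from a TSS made 26.8 per Mb, peaks 500 to 2000 bp from a TSS made 39.5, and promoter peaks made 105. Of the 4353 distal intergenic regions in the authors' relaxed pooled list, 10.4% were reproducible peaks, against 13.7% within genes and 26.0% at promoters. Distal intergenic sequence thus had the lowest density of peaks and the lowest share of its regions kept.

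Within distal intergenic sequence the density fell with distance from a TSS. It was 28.3 per Mb at 2000 to 3000 bp (103 members), 25.7 at 3000 to 5000 bp, 17.2 at 5000 to 10000 bp, 14.4 at 10000 to 20000 bp and 2.07 farther out (16 members). Each library's own regions gave the same order. Soft-masked repeat sequence rose over the same bins, to 42.5% of the sequence beyond 20000 bp against 20.6% in the nearest bin, and its part in the fall was not tested. Per Mb of unmasked sequence the nearest and farthest bins held 35.6 and 3.6 members. From the nearest to the farthest bin, the median signal of members was 185.8, 192.6, 186.6, 200.4 and 242.5, so the few farthest members were the highest in median. Mean A+T at the summit stayed between 66.4 and 68.3% over the bins.

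The median member lay 4744 bp from the nearest TSS (quartiles 3140 and 8386 bp). The farthest, at 36765 bp, was nearest to lncRNA:CR46075 in the gap that starts at Pld. It had a signal of 295.6 and relative signals of 1.39 and 1.33 in replicates 1 and 3. The next farthest were 3 members near CG43245 at 36613, 34680 and 33117 bp, and 1 beside vvl, a POU domain gene, at 33854 bp (signal 263.7, relative signals 1.12 and 1.24). At the edge of the rule, the members nearest to 2000 bp were at Cyp6v1, a cytochrome P450 gene (2012 bp, signal 369.7), Hacd1 (2018 bp, 426.2) and Teh1 (2025 bp, 499.0). The nearest peaks just outside were at Glut4EF (1997 bp, 141.5), tRNA:Ile-TAT-1-2 (1995 bp, 198.0) and Claspin (1984 bp, 204.1). Members lay upstream of the nearest gene in 55.4% of cases, the same share as that of the bases meeting the rule. The nearest TSS was that of a non-coding RNA gene for 32.2% of members and for 25.6% of those bases.

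**Figure D2:**
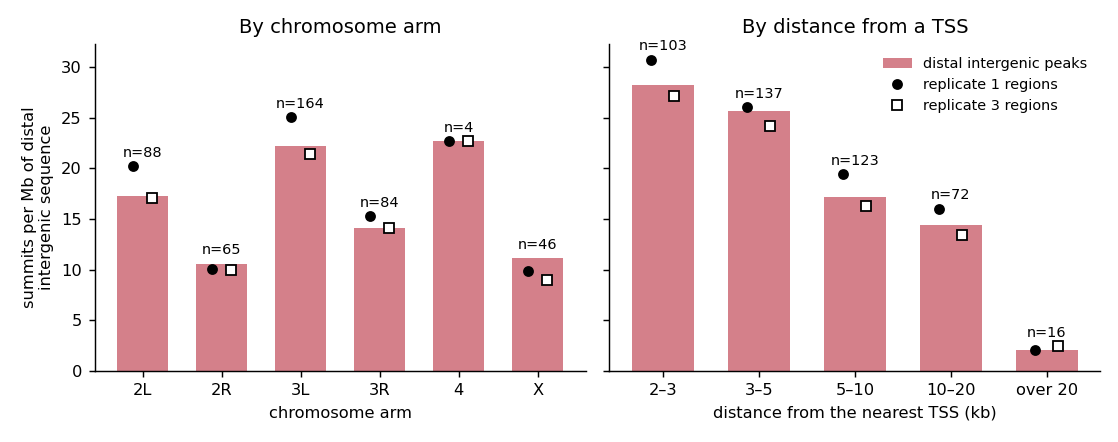
Summits per Mb of distal intergenic sequence by chromosome arm (left) and by distance from the nearest TSS in kb (right). Bars are the reproducible peaks with their number above, filled circles the highest regions of replicate 1 and open squares those of replicate 3. Arm 3L stands above the other long arms in both libraries, and density is lowest beyond 20 kb.

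The members were spread unevenly over the chromosome arms, as the bars of density by arm show. Arm 3L held 164 members, or 22.2 per Mb (25 from replicate 1 and 21.4 from replicate 3). Arm 2L held 88 (17.3 per Mb), 3R held 84 (14.2), X held 46 (11.1) and 2R held 65 (10.6). In both libraries 3L was above 2L, 2L above 3R, and 3R above X and 2R. X and 2R stood 0.52 per Mb apart, less than the difference between the libraries on X (9.90 and 8.93), and in each library 2R was the higher of this pair. Peaks of all classes were counted per Mb of the whole arm, and made 41.7 on 3L and 41.9 on 2L. Sequence meeting the rule was 26.4% of 3L and 21.7% of 2L, so these densities and those of members have unlike denominators. Chromosome 4 gave 22.7 per Mb from 4 members only, and with transposable elements counted as genes it had none.

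**Figure D3:**
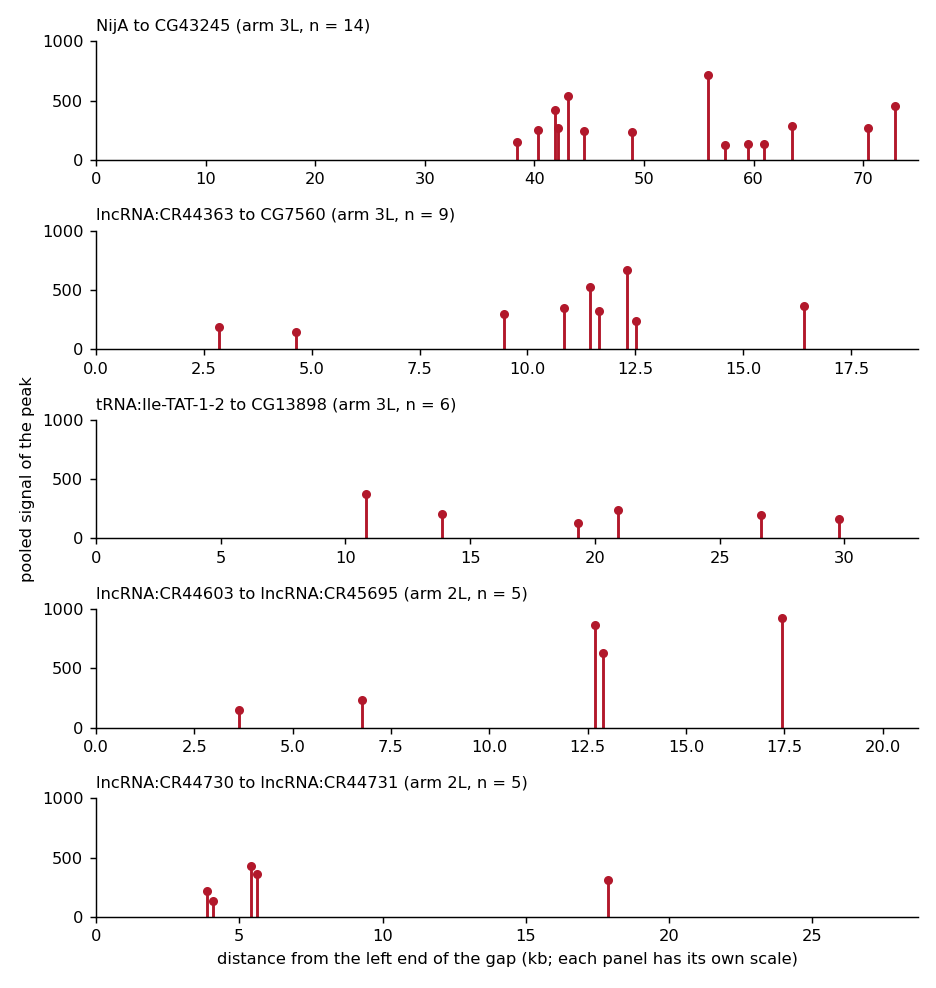
Distal intergenic peaks along the 5 intergenic gaps that held the most, by distance from the left end of the gap (kb, own scale for each panel) and pooled signal (y axis, authors' units). Each stem is 1 peak. In the gap from NijA to CG43245 all 14 stems lie in the right part of the gap.

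Many members shared a gap, the stretch between neighbouring genes. Of 3142 gaps with sequence meeting the rule, 291 held a member (9.26%), and 92 of these held 2 or more, together 252 members (55.9%). Gaps with a member were longer (median 13.0 kb) than those without (5.45 kb), and the part of gap length in the sharing was not tested. Members did not have nearer neighbours than peaks elsewhere: the nearest other reproducible summit was a median of 4163 bp away, against 2919 bp for all other peaks, and 14.9% of members had a summit within 1000 bp, against 23.5% of all other peaks. A non-coding RNA gene bordered 52.9% of the gaps with a member and 34.7% of all 3142. Gaps between divergent genes held 21.7 members per Mb, those between genes in the same direction 15.6 and those between convergent genes 14.4.

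The fullest gap lay between NijA, the gene of the adhesion protein Ninjurin A, and CG43245 (3L:10696878-10771924). It held 14 members in 75047 bp with signals from 127.6 to 718.2, and all of them lay within 34482 bp at the end near CG43245, as the stems along the gaps show. The highest regions of replicates 1 and 3 placed 15 and 13 summits there. The gap between lncRNA:CR44363 and CG7560 (3L:11406095-11425157) held 9 members in 19063 bp, with signals from 144.3 to 664.7, and each library gave 9. The gap from tRNA:Ile-TAT-1-2 to CG13898 held 6 members, the highest at 374.5, and the libraries gave 9 and 7. The gap from lncRNA:CR44603 to lncRNA:CR45695 on 2L held 5, of which the highest had signals of 929.2, 870.4 and 632.6. The last 2 of these fell in the same region of each library and share its relative signal. The gap from lncRNA:CR44730 to lncRNA:CR44731 held 5 members, the highest at 425.0. The gaps from CG17154 to vers and from vvl to lncRNA:CR45115 held 5 each as well. Gaps of 5 or more were 7 in all, and 5 of them were on 3L.

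**Figure D4:**
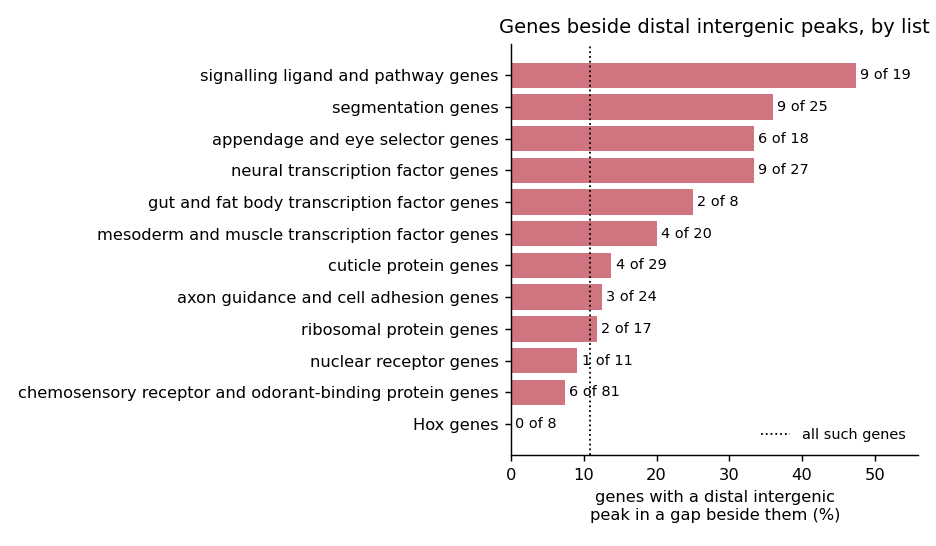
Share of the genes of each list that have a distal intergenic peak in an intergenic gap beside them, among genes of the list that border sequence meeting the rule. The numbers are the genes with a peak and the genes in all, and the dynein list, with 1 such gene, is not drawn. The dotted line is the share for all such genes, 10.9%, and the bars for signalling, segmentation, appendage and eye, and neural genes reach 33.3% or more.

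Genes of 13 lists were then read for members in the gaps that border them. Of all 5005 genes that border sequence meeting the rule, 545 (10.9%) had a member in such a gap. Among the lists, 9 of 19 signalling ligand and pathway genes had one (47.4%), 9 of 25 segmentation genes (36.0%), 6 of 18 appendage and eye selector genes (33.3%) and 9 of 27 neural transcription factor genes (33.3%). Gut and fat body genes had 2 of 8, mesoderm and muscle genes 4 of 20 (20%), cuticle protein genes 4 of 29 (13.8%) and axon guidance and cell adhesion genes 3 of 24 (12.5%). Ribosomal protein genes had 2 of 17 (11.8%), nuclear receptor genes 1 of 11 (9.09%), chemosensory receptor and odorant-binding protein genes 6 of 81 (7.41%), Hox genes 0 of 8 and dynein genes 0 of 1. Long gaps offer more room, so density is given as well: the gaps beside the gut and fat body list held 53.9 members per Mb, the signalling list 44.0, the neural list 39.7, the mesoderm and muscle list 36.6 and the segmentation list 26.4. The cuticle list had 23.5, the appendage and eye list 23.3, the axon guidance and adhesion list 22.6, the nuclear receptor list 19.3, the chemosensory list 12 and the ribosomal protein list 4.93. All sequence meeting the rule had 15.6, and the order by density was not that by share of genes. The Hox and dynein lists had 0 members, in 0.0366 and 0.00239 Mb. The other list densities rest on few peaks, from 2 beside the ribosomal protein list to 16 beside the neural list. The gut and fat body value comes from 5 members in 0.0928 Mb. Some genes are in 2 lists, and neighbouring genes can share a gap and its peak. No list was tested.

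Among segmentation genes, the highest member lay between the forkhead genes slp1 and slp2 (2L:3832363-3832632, signal 629.2), with relative signals of 2.43 and 3.30 in replicates 1 and 3 (mean 2.87 ± 0.615, SD, n = 2). The next, beside the Wnt ligand gene wg (2L:7295909-7296332, 316.9), stood at 1.55 and 1.35, and its gap is also that of Wnt4. Among signalling genes, the member beside ptc, the Hedgehog receptor gene, had a signal of 291.9 and relative signals of 1.46 and 1.37. The member between the FGF genes pyr and ths had a signal of 253.8, and those beside the Notch ligand gene Ser and the cytokine gene upd2 had 240.0 and 237.7. The highest members beside the 9 signalling genes had signals from 140.3 (Tl, the Toll receptor gene) to 316.9 (wg and Wnt4), against a median of 205.1 over all peaks.

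Among neural transcription factor genes, zfh2 came first, followed by the Sox gene D (3L:14174254-14174514, signal 464.2), at 2.2 and 2.13 in replicates 1 and 3, and by the Pax6 gene toy on chromosome 4 (282.2), at 1.26 and 1.33. In the mesoderm and muscle list, the member beside the T-box gene Doc2 (404.0) stood at 1.87 in both libraries, that beside the GATA factor gene srp (332.6) at 1.73 and 1.36, and that beside the T-box gene H15 (195.0) at 0.978 and 0.832. In the gut list, members lay beside fkh (266.3) and exex (158.6). In the appendage and eye list, the member between the Pax genes eyg and toe (3L:12457330-12457438, 424.3) stood at 2.16 and 1.85, and that beside mirr, an Iroquois gene, had a signal of 257.6. Beside adhesion and guidance genes, the highest were at shg, the gene of E-cadherin (315.3), robo2 (250.5) and robo3 (179.1).

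In the remaining lists no member reached the highest values. The members beside the ribosomal protein genes RpLP0 and RpL22-like had signals of 165.7 and 134.4, with relative signals between 0.608 and 0.767 in both libraries. The highest beside chemosensory genes, at Gr93a, Or85b and Gr93b, had signals of 236.9, 234.6 and 229.1. Beside the cuticle genes Cpr65Eb and Cpr65Ec a shared member had 206.0, and beside Cpr11A the signal was 151.0. The nuclear receptor list had a member beside kni only (185.8), a gap gene that is also in the segmentation list. The member nearest to the tagged gene Asciz was 214 kb from it and the member nearest to ctp 254 kb.

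**Figure D5:**
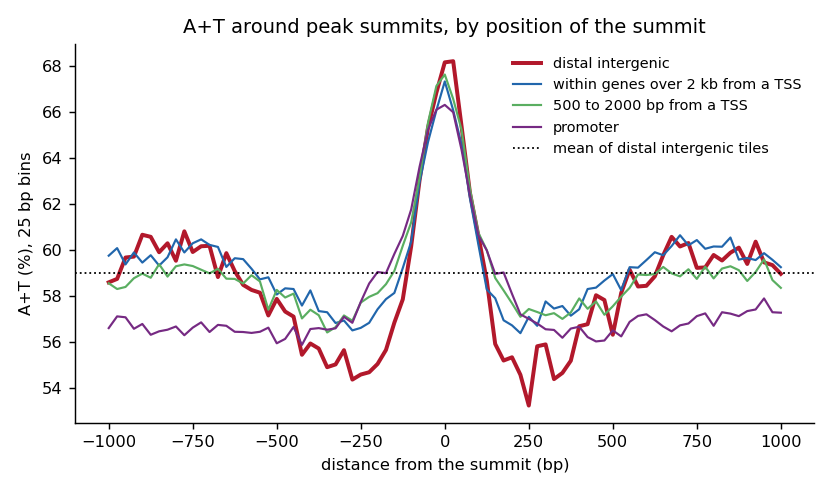
Mean A+T (%) in 25 bp bins by distance from the summit (bp) for distal intergenic peaks (thick red line) and for the peaks of 3 other classes of position. The dotted line is the mean of tiles of distal intergenic sequence. The red line is highest at the summit, at 68.2%, and lowest 250 bp to its right, at 53.3%.

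Summits of distal intergenic peaks were A+T-rich and their flanks A+T-poor. The summit with 50 bases on either side held 67.3 ± 8.54% A+T (SD, n = 451 members). Flanks of the same length centred 300 bp away held 54.9 ± 7.13%. The summit was the higher at 368 members (81.6%), against 76.1% of all other peaks and 76.6% of all peaks. The mean difference was 12.3 points, and it was 12.3 for the summits of replicate 1 alone and 10.8 for those of replicate 3 alone. For all other peaks the summit held 66.2%, the flanks 56.9% and the difference was 9.31. Tiles of that length over all sequence meeting the rule held 59.0 ± 9.71% (284337 tiles). The profile of A+T around summits shows both departures: a rise at the summit to 68.2%, and a fall to 54.4% on the left side and 53.3% on the right, below the 59.5% found beyond 500 bp. Members differed from the other peaks at the flanks (54.9 against 56.9%) more than at the summit (67.3 against 66.2%). The difference between summit and flanks was wider than the 1.09 points (SD) between the 2 libraries' values. Base composition can change how well a fragment is amplified and sequenced, and its part in the profile was not tested.

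Composition did not follow signal among the members. Mean A+T at the summit was 67.8, 66.9, 68.0 and 66.4% from the highest to the lowest of 4 equal groups by signal, with SDs from 7.36 to 9.16. The longest A/T run had a median of 10 bp at summits, 7 bp in the flanks and 8 bp in tiles, and 27 members had a run of more than 20 bp. Besides the summits shown above, the lowest A+T was found at lncRNA:CR44366 (43.6%), lncRNA:CR44513 (44.6%) and tRNA:Arg-CCT-1-2 (44.6%). The highest was found at CG13321 (85.2%), lncRNA:CR45234 (84.2%) and Cyp28c1 (84.2%). No such summit window occurred a second time in the 6 chromosomes, and the summit of 1 member lay in an annotated transposable element.

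Of 15 short words searched on both strands in the same summit windows, 5 consisted of A and T only, and each of these was more common at members than in flanks or tiles. They were not particular to members among peaks. AATATTTA and AAATATTT had been picked as leading words of all peaks, with results known. Their excess over flanks and tiles follows in part from that choice. AATATTTA was found in 8.43% of the 451 member windows (95% Wilson interval 6.20 to 11.3%), in 1.22% of their flanks, in 2.40% of tiles, in 6.32% of the windows of all other peaks and in 7.23% of those of peaks within genes, both inside the members' interval. It was in 9.88% of the windows of replicate 1 alone and in 7.42% of those of replicate 3 alone. Tiles weighted to the A+T of the members held it in 4.78%. AAATATTT, which overlaps it by 7 letters, was in 5.10% of members, 5.61% of all other peaks, 7.37% of peaks within genes and 4.19% of weighted tiles. TATAAA was in 23.3% of members and 12.2% of tiles, TTTAAA in 16.4 and 10.4%, and TAATTA in 11.8 and 7.17%, and the weighted tiles held 21.8, 19.0 and 11.6% for these. All other peaks held these 3 words in 22.3, 19.2 and 9.37% of their windows.

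The other 10 words held G or C. GTAAACA was in 3.10% of members (interval 1.86 to 5.14%), against 6.09% of all other peaks, 7.58% of peaks within genes and 1.82% of tiles. Weighted tiles held it in 2.12%. TATCGATA was in 0.222% of members, against 1.01% of all other peaks, 0.211% of tiles and 0.309% of weighted tiles. CAGGTA was in 0.887% of members, 2.19% of tiles, 1.91% of weighted tiles and 1.88% of all other peaks. GAGAG was in 9.76% of members, 11.2% of tiles, 7.91% of weighted tiles and 10.8% of all other peaks. CGATA was in 10.9% of members, 10.6% of tiles, 10.4% of weighted tiles and 12.5% of all other peaks. TTTATTG was in 6.21% of members (interval 4.33 to 8.83%), 5.96% of all other peaks, 4.78% of tiles and 6.91% of weighted tiles. AGATAAG was in 1.77% of members, 1.17% of tiles, 1.40% of weighted tiles and 2.07% of all other peaks. GCCATTT was in 1.77% of members, 3.18% of tiles, 2.72% of weighted tiles and 1.985% of all other peaks. GGATTA was in 2.0% of members and 3.27% of tiles, and CAGCTG in 2.22 and 3.4%. A match describes these letters in the window and is not a binding site.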

How the data were processed

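ChIP-seq of GFP-tagged Asciz was represented by the authors' peak lists in narrowPeak layout. The signal of each peak, and its −log10 q value, are as deposited by the authors, and the q value was not used. The signal scale differs between lists. Each library had a list of 30000 regions holding peaks and background, the authors pooled both libraries for another such list, and from it kept the reproducible peaks by the irreproducible discovery rate. Aligner, peak caller and versions were not given in the sources used here. No file holds counts, and library depth is therefore unknown; intervals on shares cover counting error only. The labels call the libraries biological replicates.

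Lists on dm6 were used, on chromosomes 2L, 2R, 3L, 3R, 4 and X, with 1-based coordinates. Genes and TSSs came from Ensembl release 115 without transposable elements, and sequence from the RefSeq release 6 assembly, whose chromosome lengths hold all peak ends. Library regions were matched to a peak by an overlap of at least 1 bp. Tiles were non-overlapping windows as long as a summit window, which is the summit with 50 bases on either side. Listed symbols were looked up as written or by an unambiguous synonym; nos, Bar, Dl and punt were not matched. Functions were tested on simulated data. Calculations used numpy 2.4.6, scipy 1.17.1 and pandas 2.3.3 in Python 3.11.15, with matplotlib 3.10.9 for plots. No test between groups was made, since there is 1 group of 2 libraries. Alternatives changed the TSS distance, the gene models, the overlap, the windows and the library used.

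Peaks named were the 15 highest members, 3 on either side of 2000 bp, the 5 farthest from a TSS, the 5 fullest gaps, the 5 largest differences between libraries in each direction, members with no region in a library and the 5 highest and lowest in A+T. The 3 genes of each list with the highest member beside them, Asciz and ctp were also named. The members and lists were chosen with earlier results of these data known.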

Additional observations from a re-analysis of the deposited data

How the results depend on the processing

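Using replicate 3 or replicate 1 alone gave a share of members from 8.48 to 9.56%, a ratio of the members' median signal to that of all other peaks from 0.885 to 0.929 (0.914 with both), an A+T difference from 10.8 to 12.3 points and a density from 14.9 to 16.8 per Mb. The share became 12.1% at over 1000 bp from a TSS, 4.15% at over 5000 bp, 12.9% with protein-coding genes only and 5.74% among the highest 25% of peaks. The density became 10.6 per Mb at over 5000 bp, 18.3 with transposable elements as genes, 2.53 for the highest 25% of peaks and 21.8 per Mb of unmasked sequence, an alternative chosen after seeing the data. The A+T difference became 10.1 with 100 bases on either side of the summit and 9.60 with flanks 500 bp away. The share in both libraries became 98.7% with the 10000 highest regions, 99.6% with all regions and 100% for the highest 25% of peaks. The share that differed between libraries became 0% for the highest 25% of peaks and 15.8% as more than 25 points of percentile rank, where all peaks gave 18.4%. The difference of chromosome 4 from the density of all 6 chromosomes turned round, to -2.64 per Mb at over 5000 bp and -18.3 with transposable elements as genes, where its 4 members were lost. The other chromosomes kept their side under each alternative run. Of the values for these results under alternatives, 23 of 39 stayed within the stated error, as did 94 of 105 for the words. For signal, A+T and density that error was the SD between the values of replicate 1 alone and replicate 3 alone. Those values are also among the alternatives counted, so their outcome was in part set in advance. Gene counts of the lists stayed within 1.5 times in 22 of 39. Counts of 0 that stayed 0, for Hox and dynein genes, are among these 22. The number of genes read also changed with the setting. For ribosomal protein genes it went from 17 to 60 when a TSS within 20 kb of a member was counted. No paired analysis was possible because the labels give only 1 group, so no replicate numbers pair samples across groups; classes of peaks were set side by side within each library instead. The depth is unknown, and the causes of these changes were not tested beyond the fewer peaks or longer sequence that a setting brings.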

Other observations

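The following values were chosen after they were seen. The gaps on either side of the Psc and Su(z)2 pair held 6 members, 2 between CG13321 and Psc and 4 between Su(z)2 and CG13323. Their signals ranged from 138.8 to 1617, and 3 of them were among the 10 highest of all 451 members. In the gap beside Su(z)2, the other 3 members were low, with a median signal over the 4 of 157.3. Among all neighbouring members, 16 pairs of summits lay within 300 bp of each other.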
